A study of Caenorhabditis elegans with 4 samples.

Results

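NHR-12 regions on chromosome II were taken as every entry with chromosome II in the 3 region lists that the authors deposited for this chromatin immunoprecipitation sequencing (ChIP-seq) study. The list made by the authors from both ChIP libraries, called combined here, held 23 such regions of 197 in all. The list of ChIP replicate 1 held 3400 of 25045, and that of ChIP replicate 2 held 3785 of 30000. The animals were hermaphrodites of the nematode Caenorhabditis elegans, harvested as L2 larvae after growth at 20 °C. The samples form 2 groups, an anti-GFP ChIP group with 2 libraries and an input group with 2 libraries of total sheared chromatin. Animals of both groups were strain OP318, which carries the ed3 allele of unc-119 and the transgene wgIs318. That transgene holds nhr-12 tagged with TY1, EGFP and FLAG, with unc-119(+) as a second gene. It was built by recombineering and brought in by particle bombardment, so the antibody recovered the tagged transgene product and not the untagged protein. Chromatin came from whole animals, so cell types cannot be told apart, and an animal without the tag was not analysed here. The input libraries come with no list used here, so the comparisons below rest on the ChIP lists alone.

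Nuclear hormone receptors are transcription factors that bind short DNA elements through a pair of zinc fingers and, in many members, respond to a small lipid-like ligand through a separate domain. The family is strongly expanded in nematodes, and NHR-12 is one of its members. C. elegans chromosomes have no single centromere. The centres of the autosomes are known to be dense in genes and to recombine rarely, while the arms are richer in repeats and recombine more often. In the RefSeq gene table of assembly WBcel235 the gene nhr-12 (R04B5.4) is on chromosome V and unc-119 (M142.1) is on chromosome III, so neither gene of the transgene has its native copy on II.

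Positions below are on genome build WormBase WS220, as the file headers give it. Genes, exons and DNA sequence at these positions were not assigned, because no annotation or genome of that build was used here. Each region carries a score from the authors' caller, whose scale the files do not state. A rank gives the place of a region within its own list, with rank 1 the strongest and tied regions ordered by the number in their names. Ranks and scores describe a region within its own list, since the lists differ in length and in score range. Read depth was unknown for all libraries. Whether the replicates stem from separate cultures is not in the labels, so their differences may be technical.

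The 23 combined regions were spread over nearly the whole of chromosome II, from 1.87% to 93.9% of its length. Of the 23, 19 were exactly 564 bp wide, and the other 4 were 179, 239, 376 and 2979 bp wide. The top score in the combined list, 2.37, was reached by 13 of the 23 regions (56.5%), against 89 of the 174 regions on the other 5 nuclear chromosomes (51.1%). The other 10 regions on II had scores from 1.38 to 1.97. All 23 met an entry of replicate 2 and 20 met one of replicate 1, at an overlap of at least 1 bp. Over the 6 nuclear chromosomes these shares were 98.0% for replicate 2 and 97.0% for replicate 1. Where several replicate regions lay under one combined region, the best rank among them is given below.

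The left arm, taken as the part left of the centre, held 3 combined regions, each far from the next. The outermost, from 285522 to 286085 with a combined score of 1.93, met rank 2374 in replicate 1 and rank 82 in replicate 2. The next, from 1320343 to 1320906 with a combined score of 2.37, met rank 3219 in replicate 1 and rank 100 in replicate 2. Both were thus among the first 100 of the replicate 2 list, while in replicate 1 they stood at 9.48% and 12.9% of the list from the top. The innermost of the 3, from 2889110 to 2889673, also had a combined score of 2.37 and met rank 197 in replicate 1 and rank 87 in replicate 2, so it was the only region of this arm that was strong in both lists.

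The centre, taken as the middle 50% of the chromosome's length, held 13 combined regions. The first, from 4851520 to 4852083, had the highest combined score although the lists differed widely there, with rank 42 in replicate 2 and rank 12599 in replicate 1. A region from 5373165 to 5373728 had a combined score of 1.92 and rank 60 in replicate 2, and met no region of replicate 1. In replicate 1 the nearest entry lay 143 bp away and ranked 4373, so the lists came close there without an overlap. Next came an overlapping pair. The region from 5543425 to 5543988 (score 2.37) contained the smaller one from 5543756 to 5543934 (score 1.94, 179 bp), and both met the same entries, at rank 241 in replicate 1 and rank 10 in replicate 2. This pair is 1 locus listed as 2 regions.

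Another 2 regions of the centre were near the top of replicate 1 and further down in replicate 2. The region from 5844521 to 5845084 had a combined score of 2.37, with rank 25 in replicate 1 and rank 526 in replicate 2. The region from 6588733 to 6589296 had the lowest combined score on II, 1.38, with rank 95 in replicate 1 and rank 24498 of 30000 in replicate 2. That entry of replicate 2 had a score of 0.03, so the region was near the top of one list and in the weakest part of the other. A pair of neighbours, from 8561116 to 8561679 and from 8569219 to 8569782, lay 7539 bp apart and both had the highest combined score. The first met rank 243 in replicate 1 and rank 35 in replicate 2, and the second met rank 248 in replicate 1 and rank 118 in replicate 2. In replicate 1 both met entries with its highest score, 2.86. In replicate 2 the first met a score of 2.17 and the second a score of 1.60. The other 5 regions of the centre, the widest region and a group of 4, are described further below.

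The right arm held 7 combined regions. The innermost, from 11761747 to 11762122, was 376 bp wide with a combined score of 1.59, and met rank 676 in replicate 1 and rank 97 in replicate 2. The region from 12102264 to 12102827 had a score of 1.97 and met rank 2445 in replicate 1 and rank 98 in replicate 2. As on the left arm, both were near the top of the replicate 2 list. Those starting at 13460634, 13834205 and 14039984 had the highest combined score, with ranks 927, 191 and 392 in replicate 1 and ranks 129, 112 and 104 in replicate 2. Of these, the one at 13834205 was among the first 197 in both lists. The last 2 regions, starting at 13976012 (score 1.58) and 14349271 (score 1.59), ranked 79 and 99 in replicate 2 and met no region of replicate 1. The nearest entry of replicate 1 was 5346 bp from the first of them and ranked 16941. It was only 268 bp from the second and ranked 410, so a strong entry of replicate 1 lay beside that region without touching it.

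The members were gathered near the top of the replicate 2 list and lay more widely spread in that of replicate 1. Their median best rank was 93 of 30000 in replicate 2, over 23 regions, and 245.5 of 25045 in replicate 1, over the 20 regions with an overlap. On the other 5 nuclear chromosomes the medians were 142.5 in replicate 2 and 162 in replicate 1. Of the 23 regions on II, 20 met one of the first 197 entries of replicate 2, and 7 met one of the first 197 of replicate 1. On the other chromosomes these numbers were 111 and 95 of 174. In replicate 1, 363 entries tie at the highest score. Both of its medians and its first 197 thus depend on the numbers in the region names. That score was met by 11 of the 20 regions on II with an overlap in replicate 1 and by 115 of the 171 elsewhere. Relative to list length, 17 of the 20 regions found in both lists stood higher in replicate 2 and 3 stood higher in replicate 1, against 112 and 55 of 167 on the other chromosomes. These counts also depend on the numbers in the region names, since 11 of the 20 regions on II met a tied entry of replicate 1. The lists end at different scores, 0.00432 in replicate 1 and 0.0204 in replicate 2, so such places are no measure of relative binding strength. The difference between II and the rest in these rank measures was not tested. Across the 20 regions on II found in both lists the ranks had a Spearman rho of 0.11, and across the 167 elsewhere 0.06. Both are descriptions over regions that share both libraries. Tied scores were ordered by the numbers in the region names, and on II an overlapping pair with the same ranks counted as 2 regions.

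**Figure D1:**
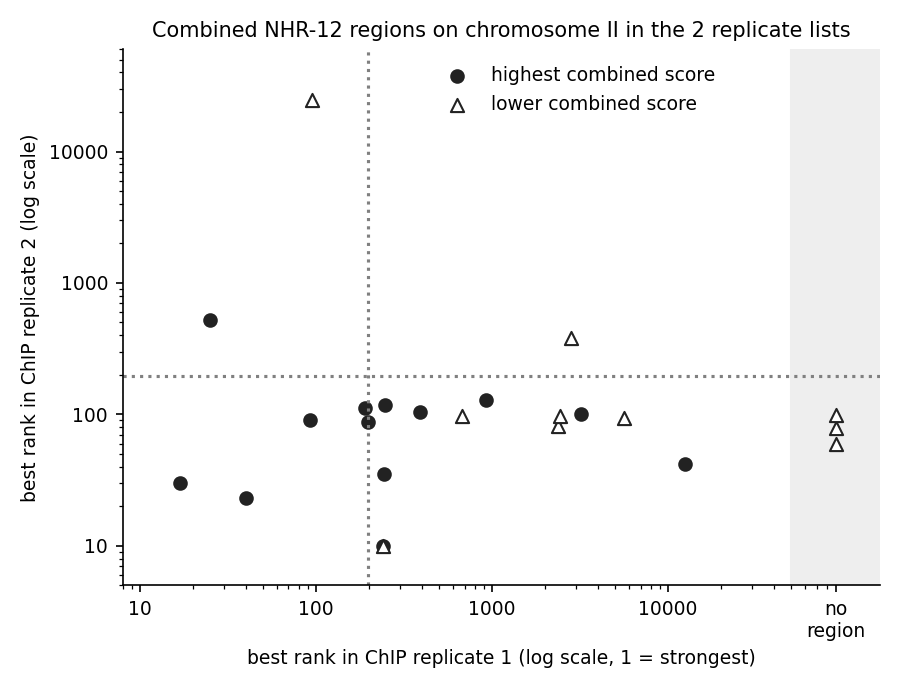
Best rank of each of the 23 combined regions on II in replicate 1 (x axis, log scale) and replicate 2 (y axis, log scale), where 1 is the strongest entry. Filled circles have the highest combined score, open triangles a lower one, dotted lines mark rank 197, and the 3 points in the grey strip have no region in replicate 1. Most points lie below the horizontal line but right of the vertical one, and 5 lie within the first 197 of both lists.

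The share with a counterpart in replicate 1 was lower on II than elsewhere. It was 20 of 23 on II (87.0%, 95% exact binomial interval 66.4 to 97.2) and 171 of 174 on the other 5 nuclear chromosomes (98.3%, 95.0 to 99.6; Fisher's exact test, two-sided p = 0.0222, and 0.0444 with Benjamini-Hochberg adjustment over the 2 replicates). For replicate 2 it was 23 of 23 on II (100%, 85.2 to 100) and 170 of 174 elsewhere (97.7%, 94.2 to 99.4; Fisher's exact test, p = 1). The 3 unmatched regions were known from earlier results on these lists before the test was chosen, and the combined list was built from both replicates, so the p is a description and no independent evidence. It rests on 3 regions, of which 2 lay within 268 bp of an entry. When an overlap of at least 50% of the shorter region was required, the shares were 87.0% on II and 97.1% elsewhere and the call was lost (Fisher's exact test, p = 0.0529); over the 5 alternatives run, the exact p ranged from 0.0197 to 1, and 4 lost the call. The 3 unmatched regions had combined scores from 1.58 to 1.92, while all 13 regions on II with the highest score had a counterpart in both lists.

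Midpoints were close where the lists met. The midpoint of a combined region lay a median of 27.5 bp from that of its best entry in replicate 1 and 20 bp from that in replicate 2. On the other chromosomes these medians were 23 and 19 bp. In replicate 2 the midpoints were within 1 bp for 6 of 23 regions, and in replicate 1 for 2 of 20. An offset of more than 100 bp was found for 2 regions in each list. In replicate 1 the offset was largest, 867 bp, at the widest region, where several entries divide the locus.

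That region, from 8418663 to 8421641, was 2979 bp wide and had the highest combined score. Entries of both replicate lists covered almost all of it, 95.2% in replicate 1 and 97.4% in replicate 2. Replicate 2 listed 1 position, from 8418717 to 8421617, 6 times, with scores of 2.17, 2.17, 1.63, 0.74, 0.34 and 0.03 and ranks from 23 to 20575. Replicate 1 listed 3 positions in 5 entries. Its strongest entries there, at ranks 40 and 47, ran from 8420425 to 8421613 and from 8419975 to 8421613 and covered the right side. The left side, from 8418778 to 8420075, ranked 664 and 7347 in replicate 1. The replicates therefore marked the same stretch but split it differently, and replicate 1 placed the right side higher.

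**Figure D2:**
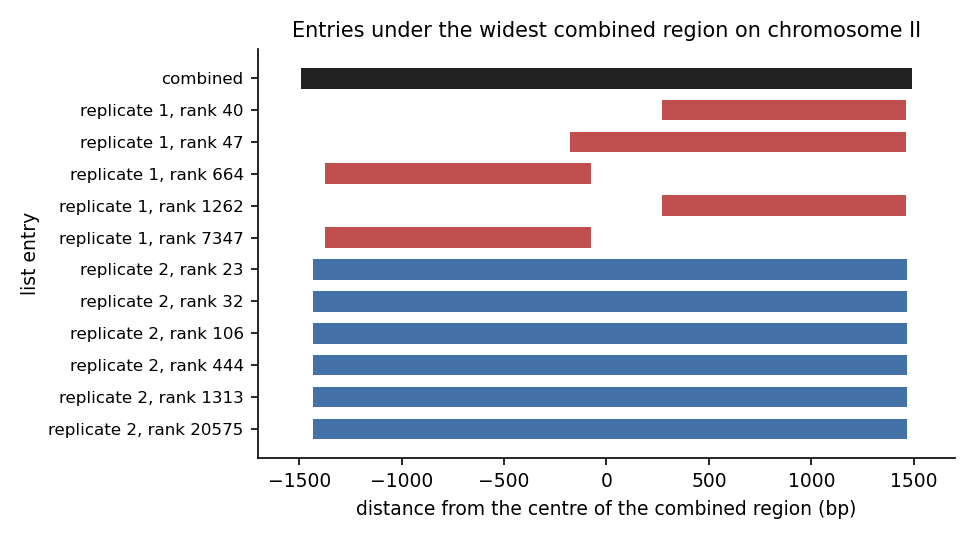
Entries of the 3 lists under the widest combined region on II, drawn as bars over the distance from its centre in bp, with the rank in the replicate list beside each. The 6 entries of replicate 2 share 1 position, while the 5 entries of replicate 1 divide into a left and a right side, with ranks 40 and 47 on the right.

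Repeated positions and unusual widths on II were largely this locus. In replicate 1, 3394 of the 3400 regions on II were 600 bp wide, and 5 of the 6 others lay here. In replicate 2, 3777 of 3785 were 516 bp wide, and 6 of the 8 others lay here. The remaining ones were narrow and formed a short stretch on the right arm. One entry of replicate 2, from 11761854 to 11762096 (243 bp, rank 97), lay inside the combined region that starts at 11761747. About 4.7 kb to its left, replicate 1 had an entry from 11756786 to 11757011 (226 bp, rank 327, with the highest score of that list, 2.86) and replicate 2 had one from 11756816 to 11757074 (259 bp, rank 136). These overlap each other and are both near the top, and no combined region overlaps them.

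The densest part of II in the combined list was a group of 4 regions spanning 21.6 kb, from 10542034 to 10563623. It began at 69.0% of the length, inside the centre. No other group of neighbours less than 25 kb apart held more than 2 regions. The rightmost of the 4, from 10563385 to 10563623 (239 bp, score 2.37), met rank 17 in replicate 1 and rank 30 in replicate 2, and was high in both. The leftmost, from 10542034 to 10542597 (score 2.37), met rank 93 in replicate 1 and rank 91 in replicate 2. Both of these met entries tied at the highest score of replicate 1, 2.86, so their ranks there follow the numbers in the region names. In replicate 2 the rightmost met the highest score, 2.17, and the leftmost met 1.68. Between them, the region from 10550382 to 10550945 (score 1.58) met rank 5673 in replicate 1 and rank 93 in replicate 2. The region from 10551725 to 10552288 (score 1.81) met rank 2831 in replicate 1 and rank 382 in replicate 2. The inner regions were thus weaker in replicate 1 than the outer ones.

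The same 21.6 kb held 19 entries of replicate 1 and 21 of replicate 2, which is 3.95 and 3.93 times the mean density of II in each list. They covered 39.7% of the stretch in replicate 1 and 40.3% in replicate 2. Of the 50 entries on II that shared the highest score of replicate 1, 6 lay here. Entries with that score from 10543875 to 10544474, from 10555916 to 10556515 and from 10558293 to 10558892 met replicate 2 at ranks 7744, 8496 and 19914. Replicate 2 in turn had an entry at rank 86, from 10546310 to 10546825, with no overlap in replicate 1. None of these 4 entries was in the combined list. The stretch was chosen because the combined list groups there, so its density is a description.

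**Figure D3:**
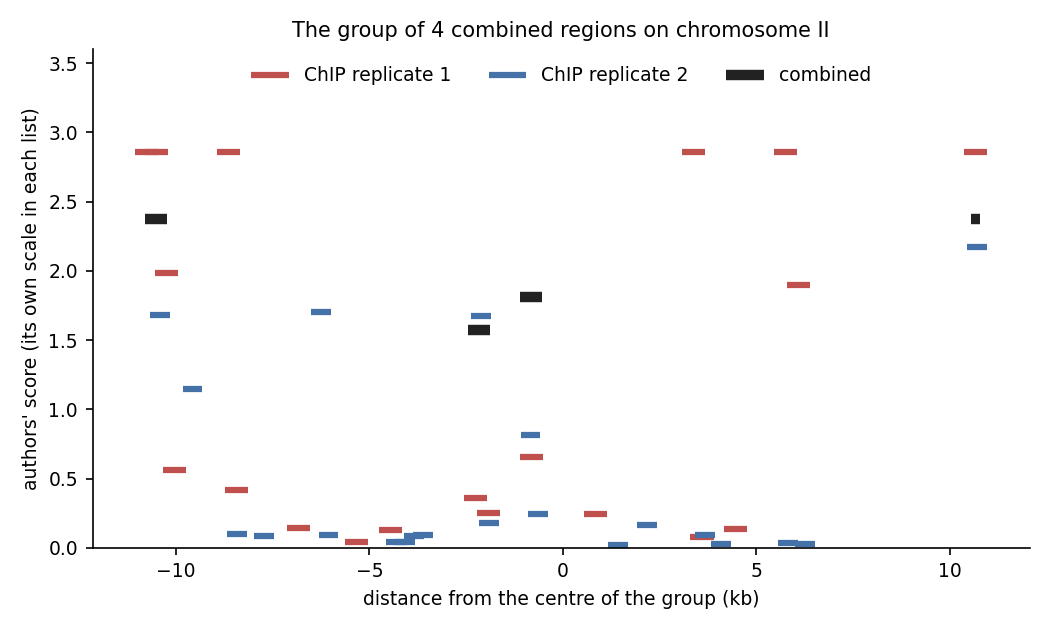
Scores of the entries in the 21.6 kb group on II, each drawn as a line over its extent, against the distance from the middle of the group in kb; each list has a score scale of its own. Both replicates are high at the left and right ends, where the combined scores are 2.37, and differ between them.

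Apart from this group, the overlapping pair and the pair 7539 bp apart, neighbouring combined regions on II were at least 63.4 kb apart. The median gap between neighbours was 0.324 Mb, and on the other nuclear chromosomes it was 0.296 Mb. The longest gaps were 1.97 Mb (from 8569782 to 10542034), 1.96 Mb (from 2889673 to 4851520), 1.83 Mb (from 6589296 to 8418663), 1.57 Mb (from 1320906 to 2889110) and 1.36 Mb (from 12102827 to 13460634). In bins of 1 Mb the combined regions reached their highest number, 4, between 5 and 6 Mb and between 10 and 11 Mb. Bins at 3 to 4, 7 to 8 and 9 to 10 Mb and the last, shorter bin held 0, while the replicate lists had between 164 and 290 regions in each of the first 3 of these. Lists this dense fill any such bin, with a median of 5 regions per 25 kb on II in replicate 1 and 6 in replicate 2. These counts therefore do not show whether strong replicate regions lay in the gaps of the combined list.

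Centre and arms did not differ in the combined list by the test used. The centre held 13 of 23 regions (56.5%, 95% exact binomial interval 34.5 to 76.8) and the arms held 10, where 50% would follow from length (exact binomial test, two-sided p = 0.678, adjusted p = 0.847 over the 5 autosomes). Over all 5 autosomes 57.5% of combined regions were in the centre. On the other 4 autosomes it was 71 of 123 (57.7%), and II differed from them by -1.2 percentage points (Fisher's exact test, p = 1). In replicate 1 the centre held 54.6% of the regions on II (52.9 to 56.3), with 52.9% over the 5 autosomes. In replicate 2 it held 50.8% (49.2 to 52.4), with 48.7% over the 5 autosomes. Among the strongest 10% of the nuclear entries the share was 64.7% in replicate 1 (207 of 320, 59.2 to 69.9) and 54.2% in replicate 2 (181 of 334, 48.7 to 59.6). Entries overlap their neighbours, so these intervals, which cover counting error over regions, are too narrow. For the strongest 10%, no share of the other autosomes was set beside II. Whether that pattern is particular to II was not tested. In the strongest nuclear regions, as many as the combined list holds, the replicate 1 centre share was 69.0% on II. On the other autosomes it was 61.5%. In replicate 2 these were 56.3% and 58.7%. Neither difference passed (Fisher's exact test, p = 0.525 and p = 0.842). Ties in replicate 1 were ordered by region name.

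The left arm of II was listed more thinly than the right arm in all 3 lists. The left arm held 3 combined regions, or 0.786 per Mb, and the right arm held 7, or 1.83 per Mb, with 1.70 per Mb in the centre. Replicate 1 had 169 regions per Mb on the left arm, 235 on the right arm and 243 in the centre. Replicate 2 had 202 on the left arm, 286 on the right arm and 252 in the centre. The left arm of II had the lowest density of the 15 arms and centres of the 5 autosomes in both replicate lists. In the combined list 3 of these 15 parts had a lower density, among them the right arm of V with 0 regions. A thinner left arm was not particular to II. Chromosome III had it in all 3 lists, with 2 combined regions on the left arm and 13 on the right. Chromosome I had it only in the combined list (4 and 15), IV only in the replicate lists, and V in none. The contrast on II was seen after the lists were examined and was not tested.

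**Figure D4:**
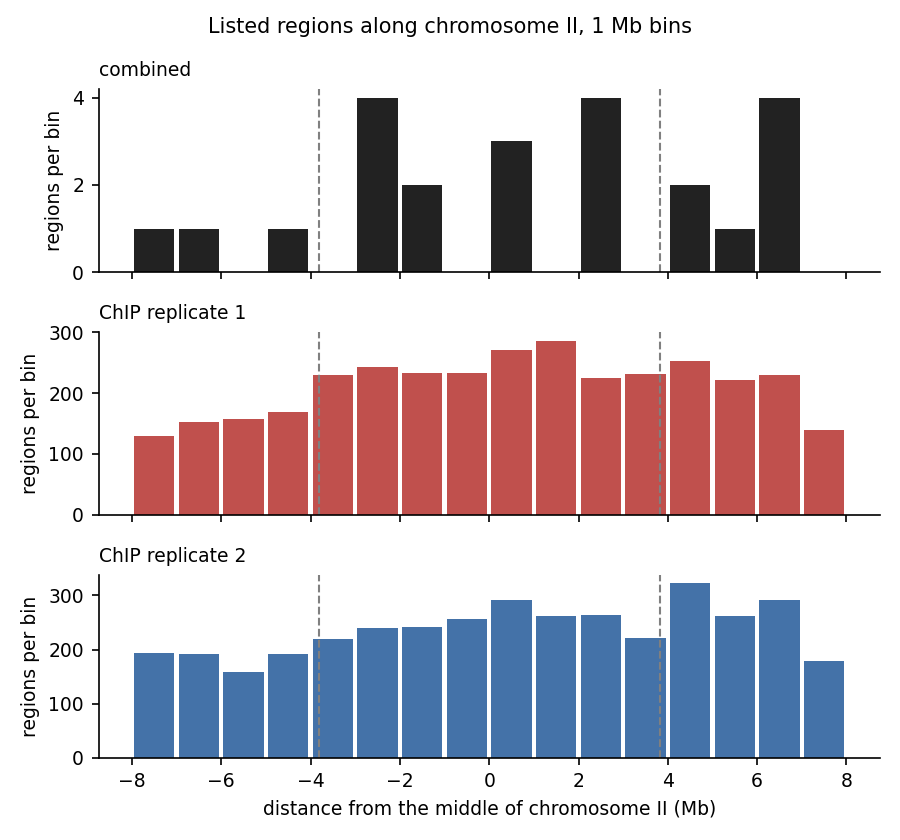
Number of regions per 1 Mb bin (y axis) against the distance of the bin from the middle of chromosome II in Mb (x axis, left end of the chromosome at left), for the combined list and the 2 replicate lists; dashed lines bound the centre, and the outermost bins reach past the chromosome ends. Apart from the partial outermost bins, bars of both replicate lists are lower on the left arm than on the right, and the combined list has 3 regions on the left arm and 7 on the right.

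As a whole chromosome, II was the most thinly listed in both replicates. It had 223 regions per Mb in replicate 1 and 248 in replicate 2, against 228 to 282 and 272 to 357 on the other nuclear chromosomes. Its regions covered 11.8% of II in replicate 1 and 11.7% in replicate 2, against 12.1% to 14.9% and 12.9% to 16.7% elsewhere. In the combined list II held 11.7% of the regions (7.55 to 17.0) with 15.2% of the nuclear length, and did not pass the exact binomial test (p = 0.197, adjusted p = 0.197 over 6 chromosomes). Its 1.51 combined regions per Mb lay within the range of 0.86 to 2.98 on the other chromosomes.

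Agreement between the full replicate lists was also lowest on II. Of the replicate 1 regions on II, 1328 of 3400 overlapped replicate 2 (39.1%, 37.4 to 40.7), with 44.1% over the 6 nuclear chromosomes and a range of 41.0% to 50.1% on the other 5. Of the replicate 2 regions on II, 1272 of 3785 overlapped replicate 1 (33.6%, 32.1 to 35.1), with 36.2% over the 6 and a range of 33.9% to 39.3% on the other 5. The interval on II overlapped that of chromosomes III and V in both lists. The other list also covered less of II, so the share of regions that met it was set beside the share of bases that it covered. That ratio was 3.33 for replicate 1 and 2.84 for replicate 2 on II, against 2.93 to 3.27 and 2.55 to 2.86 elsewhere. By this ratio II lay above the range of the other chromosomes for replicate 1 and within it for replicate 2. A region counts when 1 bp of it is met, while coverage counts single bases, so the ratio gives no expected overlap. It does not show whether overlap on II is low for its coverage. No test was made, because entries are not independent.

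**Figure D5:**
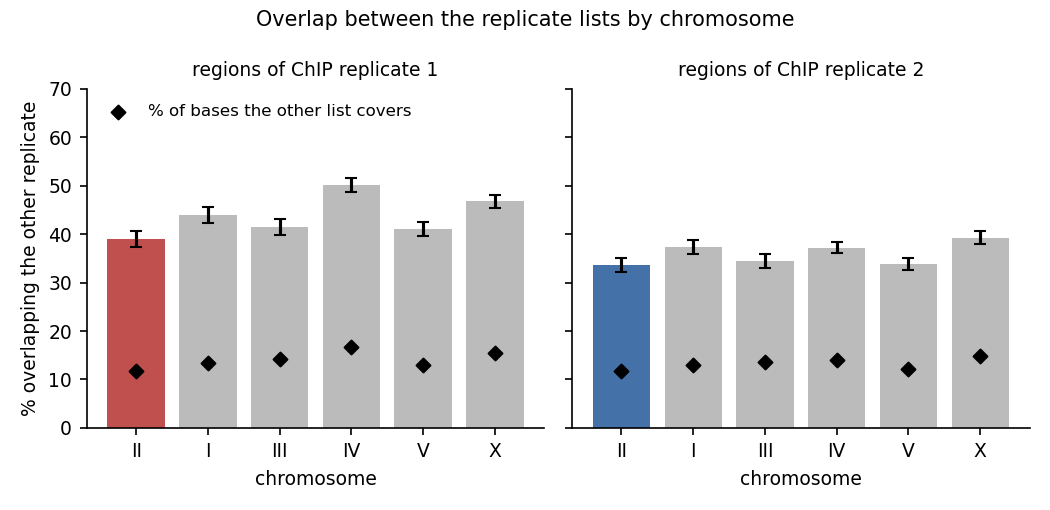
Percentage of the regions of replicate 1 (left) and replicate 2 (right) that overlap the other list, by chromosome with II first; error bars are 95% exact binomial intervals and diamonds show the percentage of bases that the other list covers. Bars for II are the lowest, at 39.1% and 33.6%, and so are its diamonds.

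Within II the overlap changed with strength and with position. Among the strongest 10% of the nuclear entries, 185 of 320 regions of replicate 1 on II met replicate 2 (57.8%, 52.2 to 63.3). Among the weakest 10% it was 114 of 345 (33.0%, 28.1 to 38.3). In replicate 2 it was 172 of 334 among the strongest (51.5%, 46.0 to 57.0) and 112 of 406 among the weakest (27.6%, 23.3 to 32.2). On the other 5 nuclear chromosomes the shares in replicate 1 were 52.7% to 63.3% among the strongest and 36.6% to 48.1% among the weakest. In replicate 2 they were 44.1% to 54.9% and 25.8% to 33.9%. Strong entries on II were thus found again more often than weak ones, with intervals that did not overlap in either list, and the other chromosomes had the same order. On the left arm 33.8% of the replicate 1 regions met replicate 2, against 42.8% on the right arm and 39.1% in the centre. For replicate 2 these were 26.9% on the left arm, 34.4% on the right arm and 35.8% in the centre. The left arm of II had the lowest overlap of the 15 arms and centres of the autosomes in both lists. Density was lower on the left arm as well, with 8.96% of it covered in replicate 1 and 9.6% in replicate 2, and its part in the overlap was not tested.

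The strongest entries on II were in part outside the combined list. Of the first 197 nuclear regions, 29 lay on II in replicate 1 and 32 in replicate 2. In replicate 1, 9 of the 29 overlapped a combined region, 15 others met replicate 2 only, and 5 met neither. On the other nuclear chromosomes these numbers were 100, 45 and 23 of 168, and 55.3% of all first 197 overlapped a combined region. The share in the combined list was thus 31.0% on II and 59.5% elsewhere in replicate 1. That difference was not tested, and 344 nuclear entries tie at the highest score of replicate 1, so its first 197 are set by the numbers in the region names. In replicate 2, 21 of the 32 overlapped a combined region, 7 others met replicate 1 only, and 4 met neither. On the other chromosomes these numbers were 113, 27 and 25 of 165, and 68.0% of all first 197 overlapped a combined region. The share in the combined list was 65.6% on II and 68.5% elsewhere in replicate 2. Between the strongest 10% of both lists, 61 of 320 entries of replicate 1 on II met one of replicate 2 (19.1%), and 40 of the 61 (65.6%) were not in the combined list. Elsewhere the numbers were close, with 429 of 2182 (19.7%) and 276 of 429 (64.3%).

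The 5 first-ranked regions of replicate 1 on II outside the combined list all had its highest score, 2.86. That score was shared by 50 entries on II, of which 12 overlapped a combined region. The 5 were thus set by the numbers in the region names. The first, from 11637012 to 11637611 at rank 71, met rank 6995 in replicate 2. The regions from 11619905 to 11620504 at rank 81 and from 18719 to 19318 at rank 113 met ranks 1045 and 6598. The other 2, from 13291217 to 13291816 at rank 79 and from 9054423 to 9055022 at rank 109, met no region of replicate 2. None of the 5 thus met an entry of replicate 2 stronger than rank 1045. This does not hold for all tied entries outside the combined list. The one from 11756786 to 11757011, at rank 327, overlapped an entry at rank 136 of replicate 2.

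In replicate 2 the corresponding 5 had scores from 1.59 to 1.70. The first was the entry at rank 86 inside the group of 4, and the second ran from 156605 to 157120 at rank 90. Neither met a region of replicate 1. The third, from 7970873 to 7971388 at rank 92, met rank 8826 in replicate 1. The region from 14407617 to 14408132 at rank 101 met rank 1111, and that from 9770044 to 9770559 at rank 127 met rank 6389. None of the 5 thus met an entry of replicate 1 stronger than rank 1111.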

How the data were processed

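Per the file headers, the deposited lists are on genome build WormBase WS220. Their source column, spp_via_IDR, points to SPP, a peak caller, and to the irreproducible discovery rate. The latter is a procedure that weighs how consistently regions are ranked between replicates. The aligner, all versions and cutoffs, and whether input reads served as control are not given in the sources used. The score of each region is the authors' deposited value, and its scale is not stated. It served only to rank regions within a list. Starts and ends were used as deposited. Widths are nearly constant within a list, so width says little about the extent of binding. Read depth is unknown.

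Overlap meant at least 1 bp. The length of a chromosome was the largest region end in the 3 lists, 15.3 Mb for II, and a region belonged to the part that held its midpoint. Shares carry 95% exact binomial (Clopper-Pearson) intervals. Tests were the exact binomial test and Fisher's exact test, two-sided, at 0.05. They treat regions as independent, although regions are no biological replicates. Scripts ran in Python 3.11.15 with scipy 1.17.1, pandas 2.3.3, numpy 2.4.6 and matplotlib 3.10.9, and were tested on simulated lists, with overlap counts checked against bedtools 2.31.1.

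Every combined region on II was named, with the 5 first-ranked other regions of each replicate list. Members, lists, tests and alternatives were chosen with earlier results of these data known. The gene table is of assembly WBcel235, so its coordinates were not used and genes near the regions were not assigned.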

Additional observations from a re-analysis of the deposited data

How the results depend on the processing

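Of 42 values recomputed under the alternatives, 21 kept their direction and call or stayed within the interval of the reported value, and no test on II that missed the threshold passed it. The lower share of combined regions with a counterpart in replicate 1 (87.0% on II) lost its call at an overlap of 50% of the shorter region (87.0%), with midpoints within 100 bp (78.3%), against the strongest 10% of replicate 1 (69.6%) and among regions with the highest score (100%), and kept it with regions within 1 kb merged (85.7%, chosen after seeing the data). The cause was not tested. The difference in centre share between II and the other autosomes, -1.2 percentage points with no call, turned to 8.31 among regions with the highest score, 7.49 without replicate 2, 9.37 with the middle 40% as centre and 0.99 with the middle 60%. The lists without 1 replicate are the first 197 nuclear regions of the other. In them the share of regions on II was 14.7% and 16.2%, where 16.2%, without replicate 1, lies above the 15.2% of length. Their centre share on II ranged from 56.3% to 69.0%, and its difference from the other autosomes from -2.48 to 7.49 points. By construction the centre share of the replicate lists moved with the centre, to 44.8% and 41.8% in replicates 1 and 2 at the middle 40% and to 64.4% and 60.3% at the middle 60%. Among the strongest 10% it was 64.7% and 54.2%, with no share of the other autosomes set beside it. Overlap between the replicate lists on II was 27.7% and 24.4% at 50% of the shorter region, 13.1% and 11.7% with midpoints within 100 bp, and 19.1% and 18.3% between the strongest 10%. No paired analysis was possible because only ChIP lists entered the comparisons, with no input list to pair them with. Length from a genome of the same build was not run. The unknown depth limits every absence from a list.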
